A study of Mus musculus with 18 samples.

Results

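Nucleoporins, the proteins of the nuclear pore complex, are described here at the level of their messenger RNA. A list of 30 nucleoporin genes was taken by symbol from an RNA sequencing table of mouse fibroblasts that holds 24445 symbols, with 1 transcript per symbol. The list held 3 genes of the nuclear basket, 9 of the outer ring, 5 of the inner ring, 2 of the central channel, 7 of the cytoplasmic side and the mRNA export machinery attached to it, and 4 of the pore membrane. Of the 30 genes, 29 passed the filter of at least 1 FPKM (fragments per kilobase of transcript, scaled to library size) in at least 2 libraries, and Nup210 did not.

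The cells were primary fibroblasts grown from tail tips of 2-month-old mice and harvested at passage 5, after lentivirus had delivered a guide RNA with an mCherry reporter. Pro/Pro;Cas9/+ cells carry 2 copies of the progeria allele Pro and 1 Cas9 transgene, and are called homozygous Cas9 cells. Pro/+; +/+ cells carry 1 Pro allele and no Cas9, so that the guides have no nuclease to direct, and are called heterozygous cells. The third genotype, +/+;Cas9/+, has no Pro allele and 1 Cas9 transgene, and is called wild-type Cas9 cells. Each genotype received gLmna-1 or gLmna-2, which both target the lamin A/C gene Lmna, or gMock, a guide with no match in the genome. Every treatment was applied to cells of the same 2 mice of a genotype, which gives 18 libraries in 9 groups of 2. For 1 heterozygous mouse the name may stand for 1 animal or a pool. Cells were neither sorted nor selected, and over 80% were mCherry-positive per the labels, so each library mixes transduced and other cells. A lower level in such a bulk sample can mean fewer cells with the RNA or less RNA per cell, which cannot be told apart.

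The nuclear pore complex is a ring-shaped channel through the nuclear envelope that carries proteins and RNA between nucleus and cytoplasm. Its scaffold consists of inner and outer rings anchored in the membrane, its channel is lined with proteins rich in phenylalanine-glycine repeats, and a basket of filaments reaches into the nucleus. The basket lies against the lamina, the meshwork that lamin A/C helps to build, and nucleoporins of the basket and of the outer ring are also known for contacts with lamins or chromatin. Progerin, the truncated lamin A of progeria, is known to disturb the distribution of basket protein Tpr and the import of proteins into the nucleus.

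The promoters of Nup153 and Tpr are shown because these were the members whose RNA passed the test described further on. Both sequences are from RefSeq, build GRCm38.p6, with 250 bases before and 50 after the annotated start, read 5′ to 3′ on the gene's strand. Nup153 lies on the minus strand with its promoter window at chr13:46727800-46728099, and Tpr on the plus strand with its window at chr1:150392588-150392887. Capitals mark matches to the GC box GGGCGG and to the CCAAT box CCAAT, in either orientation.
Nup153: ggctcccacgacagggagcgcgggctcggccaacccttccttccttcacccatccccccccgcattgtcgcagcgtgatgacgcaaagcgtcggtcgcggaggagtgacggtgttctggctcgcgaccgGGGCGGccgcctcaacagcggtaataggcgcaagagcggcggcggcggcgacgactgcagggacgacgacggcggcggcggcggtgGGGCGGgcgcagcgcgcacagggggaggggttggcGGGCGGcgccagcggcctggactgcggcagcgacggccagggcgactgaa
Tpr: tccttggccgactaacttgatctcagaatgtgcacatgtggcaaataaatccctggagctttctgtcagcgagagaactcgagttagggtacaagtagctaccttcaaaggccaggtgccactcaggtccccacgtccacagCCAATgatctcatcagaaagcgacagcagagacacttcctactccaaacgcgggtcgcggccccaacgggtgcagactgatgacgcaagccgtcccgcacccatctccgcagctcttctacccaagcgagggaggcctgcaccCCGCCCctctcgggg

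The Nup153 window held 3 GC boxes on the gene's strand, no CCAAT box, 74% G or C and 45 CpG dinucleotides. The Tpr window held 1 CCAAT box on the gene's strand and, as CCGCCC, 1 GC box in the reverse orientation, with 58% G or C and 17 CpG dinucleotides. Of the 30 genes, 26 had at least 1 promoter in the table, 29 promoters in all. A GC box was found in 62.1% of these promoters and in 35.7% of all 32851 promoters of the same length. The ETS motif CCGGAAG, searched on both strands like the others, was in 31% of the members' promoters (those of Aaas, Gle1, Nup107, Nup155, Nup37, Nup54, Rae1 and Sec13), against 8.86% of all promoters. The NRF1 core GCATGCGC was in 10.3% of the members' promoters, those of Nup107, Nup50 and Nup62, and in 2.71% of all. A CCAAT box was in 41.4% against 37.4%, and the TATA box TATAAA in 10.3% against 13.6%. Neither Nup153 nor Tpr held the ETS, NRF1 or TATA letters in its window. These are letter matches, with no matching for base composition, and overlap between matches of different motifs was not checked.

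Depth recovered from the steps of the values was 22424242 to 42622380 reads per library. Fibroblast markers (8 genes, including Col1a1 and Vim) summed to 6965 to 9403 FPKM and were detected in every library, while the 5 keratinocyte markers summed to at most 2.48 FPKM and the 4 endothelial ones to at most 2.26 FPKM. Krt1 was at 0 in every library. Pigment and Schwann cell markers summed to at most 24.2 FPKM. Macrophage markers, 10 genes led by Lyz2, summed to between 71.5 and 1519 FPKM. Lmna itself was at 249 and 217 FPKM with gLmna-1, 247 and 310 FPKM with gLmna-2 and 246 and 370 FPKM with gMock in homozygous Cas9 cells, and its change did not pass the test in any guide comparison described here. A change in Lmna sequence is not read by these values.

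The library of homozygous Cas9 cells with gLmna-1, replicate 1, stood apart in how reads lay along transcripts. Over 2044 genes with at least 5 FPKM and transcripts of at least 4000 bases, the level on the 5′ side of the transcript's midpoint was set against that on the 3′ side. The median log2 ratio was -0.28 in this library and between -0.06 and 0.10 in the other 17. In its comparison with gMock of the same mouse, 13 of the 14 members with transcripts of 4000 bases or more were lower (median change -0.28 on the log2(FPKM + 1) scale), but 4 of the 15 shorter ones (median change 0.07). Over all tested genes the corresponding medians were -0.19 and 0.04. The changes that passed the test and the medians of the members are therefore also given without this library where it entered them.

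**Figure D1:**
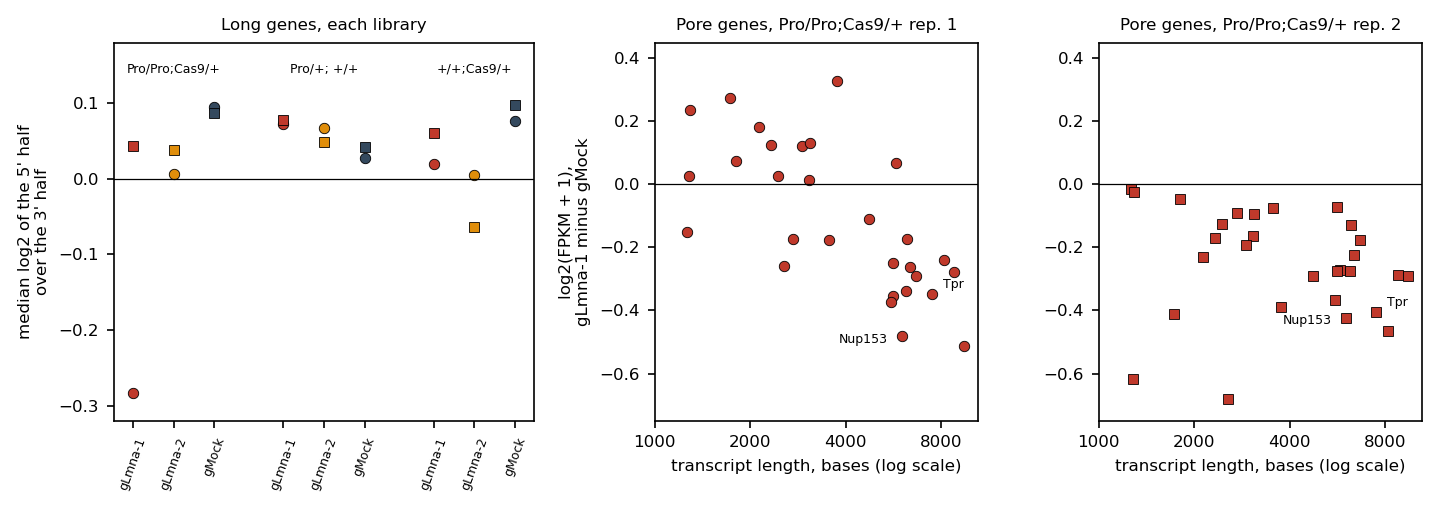
Left, median log2 ratio of the level on the 5′ side to that on the 3′ side of the midpoint of 2044 long transcripts in each of the 18 libraries (circles, replicate 1, squares, replicate 2, of each genotype). Middle and right, change of the 29 tested pore genes with gLmna-1 relative to gMock in homozygous Cas9 cells of replicate 1 and replicate 2, on the log2(FPKM + 1) scale, against transcript length on a log axis. Replicate 1 with gLmna-1 lies at -0.28 in the left panel, and its longer pore genes lie lower, while in replicate 2 all 29 genes lie below 0.

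In the other homozygous mouse the gLmna-1 library had a median log2 ratio of 0.04, and all 29 members were lower than in gMock, with a median change of -0.23, against -0.04 for all tested genes. Its 14 long members had a median change of -0.28 and its 15 short ones -0.16. Pearson's r between a member's change and the log2 of its length was -0.69 in replicate 1 and -0.18 in replicate 2 across the 29 genes, which share a library and are not independent replicates.

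In these fibroblasts most pore genes were expressed at moderate levels. Medians over 18 libraries ran from 0.93 FPKM for Nup35, a membrane-binding inner ring protein, to 124 FPKM for Sec13, an outer ring protein that is also a subunit of the COPII vesicle coat. The Nup35 value comes from 1 of 2 transcripts and rests mostly on its 3′ side. That side had 1.015 to 2.082 FPKM over the libraries, and the 5′ side 0.0255 to 0.204 FPKM. 17 of the 29 tested genes had medians over 10 FPKM. The highest library exceeded the lowest by between 1.25-fold (Tmem33) and 2.08-fold (Ndc1). The median was 1.53-fold, against 1.72-fold over tested genes that were never 0, which were not matched for level. Nup210, a membrane glycoprotein known for tissue-restricted expression, had 1 to 6 reads per library and a median of 0.0096 FPKM, and was not tested.

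By place in the pore, the 3 basket genes had medians of 11.6 to 32.4 FPKM and the 9 outer ring genes of 4.66 to 124 FPKM. Inner ring genes ranged between 0.93 and 21.1 FPKM, the channel genes Nup54 and Nup62 were at 5.87 and 16.0 FPKM, and the genes of the cytoplasmic side lay between 7.96 and 29.8 FPKM, the highest being Aaas. The 3 tested membrane genes lay between 8.48 and 13.3 FPKM.

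The first comparison asks what the Lmna guides did where Cas9 could cut, taking both guides together against gMock within each mouse. In homozygous Cas9 cells no member passed the limma test after adjustment over all 12599 tested genes, and 0.0794% of all genes did. Without adjustment 8 members had p below 0.05, against 1055 of all tested genes. The changes of 26 of the 29 members were negative, with a median of -0.13, while the median of all tested genes was -0.01 and 48.1% of them were positive. Without the library with low 5′ coverage all 29 were negative, with a median of -0.17, and 0 passed. The mice differed in this shift. In replicate 1, 17 members were lower with gLmna-1 (median -0.17) and 20 with gLmna-2 (median -0.08). In replicate 2, 29 were lower with gLmna-1 (median -0.23) and 26 with gLmna-2 (median -0.16). All guide libraries lay below all gMock libraries for 6 members, Nup153, Nup50, Nup155, Nup205, Nup98 and Pom121, and above for 0. Over all tested genes this held for 4% and 3.6%.

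**Figure D2:**
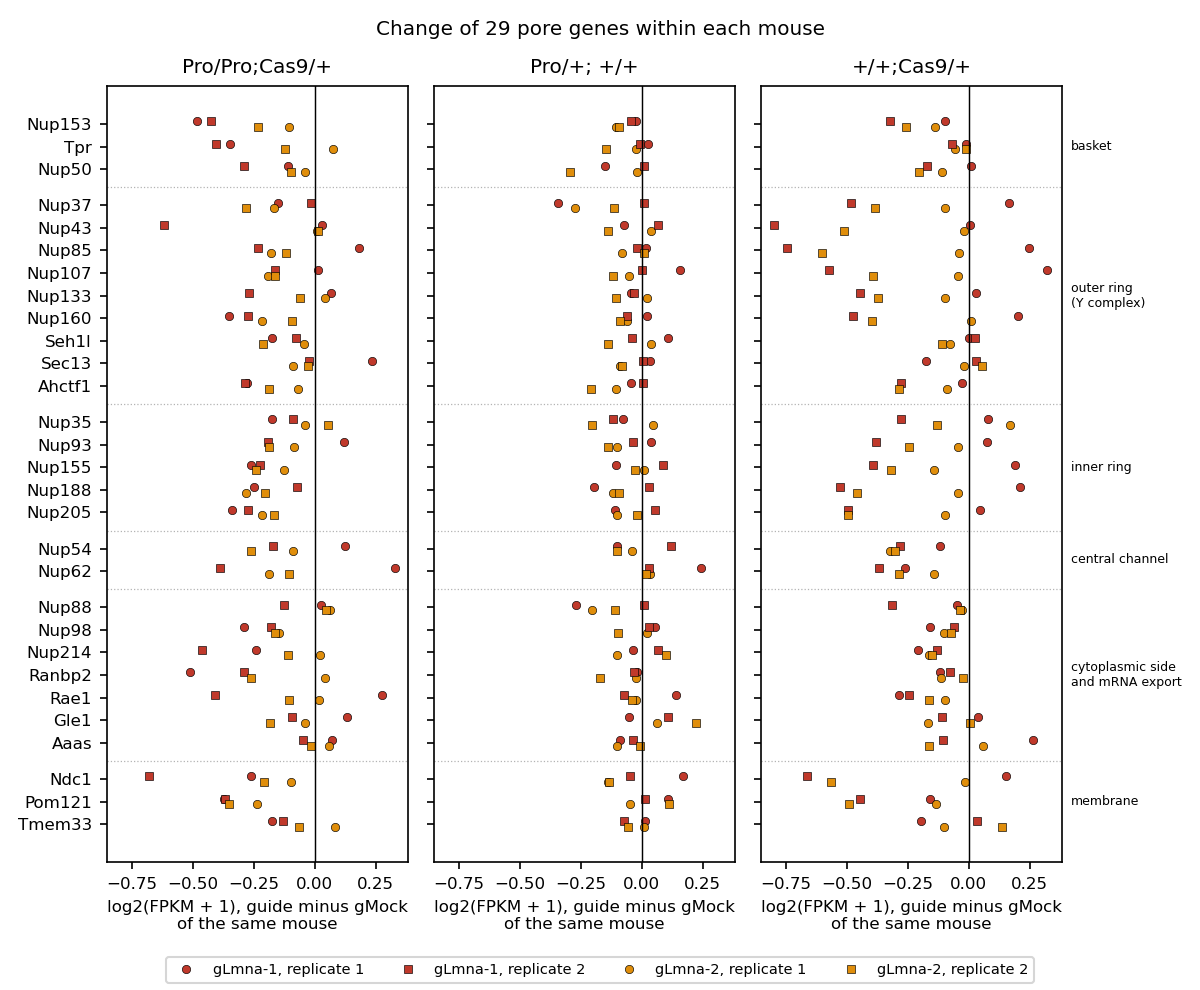
Change of each of the 29 tested pore genes with gLmna-1 (red) and gLmna-2 (orange) relative to gMock of the same mouse, on the log2(FPKM + 1) scale, in homozygous Cas9, heterozygous and wild-type Cas9 cells; circles are replicate 1 and squares replicate 2, and dotted lines part the regions of the pore. In homozygous Cas9 cells 26 of the 29 genes have a negative mean change, in heterozygous cells 23 and in wild-type Cas9 cells 28. In wild-type Cas9 cells the medians of replicate 2 are -0.31 and -0.26 and those of replicate 1 are 0.01 and -0.10.

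The calls, meaning an adjusted p below 0.05, were in the basket. Nup153 is a repeat-rich basket protein that anchors the basket and binds lamins. In homozygous Cas9 cells it had 8.94 and 10.8 FPKM with gLmna-1, 11.9 and 12.4 FPKM with gLmna-2, and 12.9 and 14.8 FPKM with gMock in replicates 1 and 2. The gLmna-1 libraries were lowest, the gMock libraries highest, and the 3 treatments did not overlap. With gLmna-1 Nup153 fell by 0.45 on the log2(FPKM + 1) scale (SE 0.081, limma adjusted p = 0.0449), lower in both mice. This was 1 of 2 members called in that comparison, both lower, where 0.976% of all genes were called and 0.373% were called lower. With gLmna-2 the difference was -0.17 (SE 0.081, adjusted p = 0.543).

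Tpr forms the coiled-coil filaments of the basket and is known for roles in mRNA export and in keeping heterochromatin away from the pore. It had 25.1 and 30.2 FPKM with gLmna-1, 34.0 and 37.0 FPKM with gLmna-2, and 32.2 and 40.4 FPKM with gMock. Both gLmna-1 libraries were below all 4 others, while the gLmna-2 and gMock libraries overlapped. Tpr fell by 0.38 with gLmna-1 (SE 0.071, adjusted p = 0.0485), and its difference with gLmna-2 was -0.02 (SE 0.071, adjusted p = 0.978).

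Both calls stood close to the threshold and depended on the fit. With no term for the mouse neither gene passed, at adjusted p of 0.413 for Nup153 and 0.502 for Tpr. Without the library with low 5′ coverage the gLmna-1 changes were -0.39 for Nup153 (adjusted p = 0.0316) and -0.35 for Tpr (adjusted p = 0.0303). In that fit Nup214, Nup62 and Rae1, an mRNA export factor bound to Nup98, were called lower as well, at -0.43, -0.41 and -0.38, so that 5 of 29 members were called, or 17.2%, and 14.1% of all tested genes were. Without any of the other 5 libraries of homozygous Cas9 cells neither gene passed. The adjusted p then ranged from 0.0532 to 0.444 for Nup153 and from 0.0565 to 0.485 for Tpr, the highest without gMock replicate 2, where the changes were -0.44 and -0.31. With the library's 5′ to 3′ ratio as a covariate Nup153 stood at -0.40 (adjusted p = 0.0648) and Tpr at -0.37 (adjusted p = 0.0526), so that neither passed. Nup214 passed in that fit, at -0.46 (adjusted p = 0.0462), as 1 of 29 members and 1216 of all 12599 tested genes. Fitted on levels from the 3′ side of each transcript alone, Nup153 changed by -0.33 (adjusted p = 0.112) and Tpr by -0.27 (adjusted p = 0.182).

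Nup50, which binds Nup153 and helps to release import cargo, was not called. It had 10.8 and 9.99 FPKM with gLmna-1, 11.4 and 11.6 FPKM with gLmna-2, and 11.7 and 12.4 FPKM with gMock. The guide libraries were all below the gMock libraries, by a margin smaller than the distance between the gMock libraries. The gLmna-1 change was -0.20 (SE 0.11, adjusted p = 0.371).

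**Figure D3:**
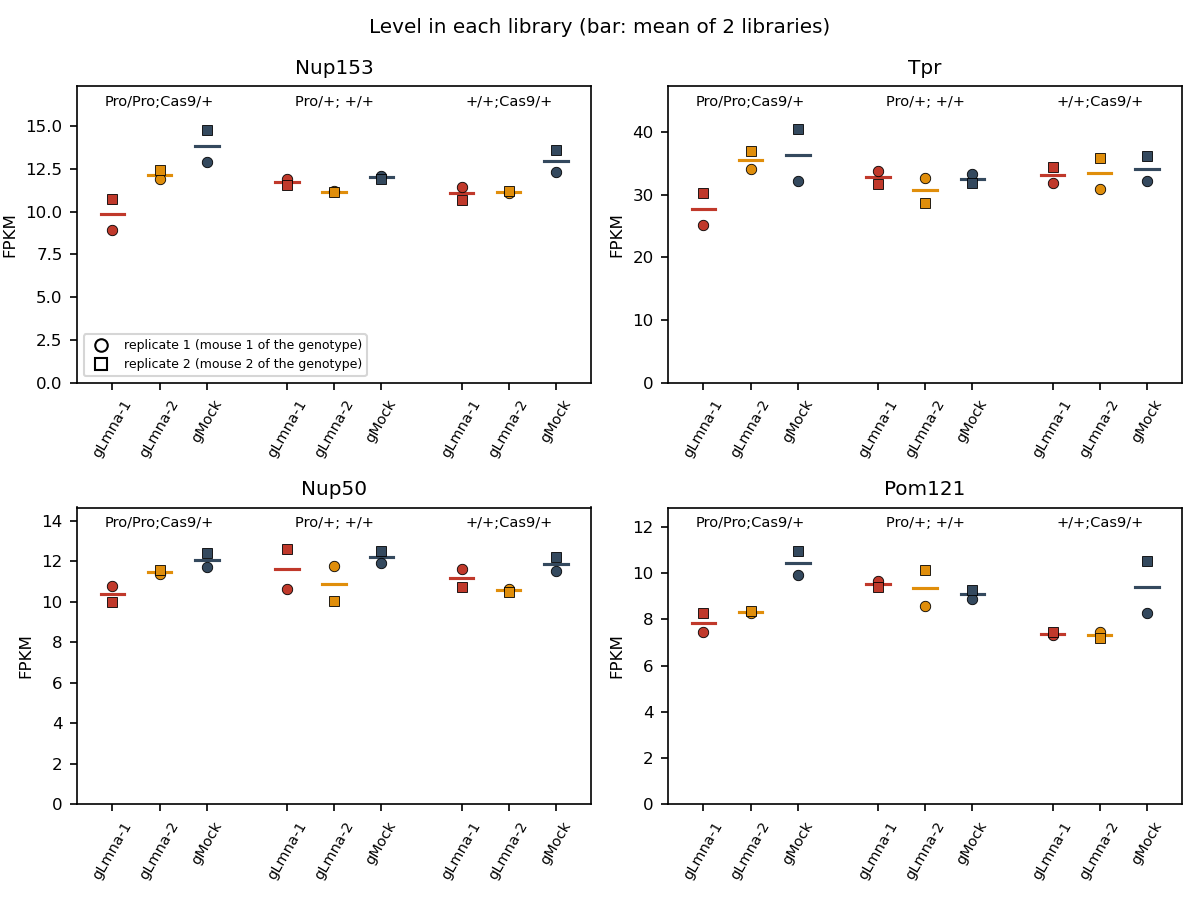
FPKM of Nup153, Tpr, Nup50 and Pom121 in each library by genotype and guide; bars are the mean of the 2 libraries of a group, circles replicate 1 and squares replicate 2. With gLmna-1 in homozygous Cas9 cells Nup153 is at 8.94 and 10.8 FPKM and Tpr at 25.1 and 30.2 FPKM, below every gMock library of that genotype.

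The basket changes were also read along the transcripts. The Nup153 transcript, chr13:46679902-46727849 on the minus strand of mm10, is 5997 bases long in 24 exon parts, of which 22 have at least 50 bases. With gLmna-1 in homozygous Cas9 cells 22 of these 22 parts were below gMock in replicate 1 and 20 in replicate 2. For gLmna-2, 18 and 19 parts were below. The Tpr transcript, chr1:150392838-150449935 on the plus strand, is 7496 bases long in 54 parts. Of these, 46 in replicate 1 and 50 in replicate 2 were below gMock in the gLmna-1 libraries. In the gLmna-2 libraries 23 and 40 were. Where neither gene was called, some counts of lower parts were high as well and others were not. In heterozygous cells 11 to 15 of the 22 Nup153 parts and 25 to 43 of the 54 Tpr parts were below gMock, and in wild-type Cas9 cells 11 to 19 and 26 to 36.

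On the 5′ side of the midpoint Nup153 changed by -0.68 and -0.50 and Tpr by -0.79 and -0.39 with gLmna-1 in replicates 1 and 2. On the 3′ side Nup153 changed by -0.31 and -0.34 and Tpr by -0.14 and -0.41. In replicate 1 the change was thus larger on the 5′ side for both genes. In replicate 2, whose coverage ratio lay among the others, this held for Nup153, while Tpr changed by about the same amount on both sides. The last Tpr part at the 3′ end, 147 bases long, varied widely. It had 98.9 and 139 FPKM with gLmna-1, 119 and 245 FPKM with gLmna-2, and 57.3 and 223 FPKM with gMock. With gLmna-1 this part was thus higher than gMock in replicate 1 and lower in replicate 2. Its weight in the Tpr values was not tested.

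**Figure D4:**
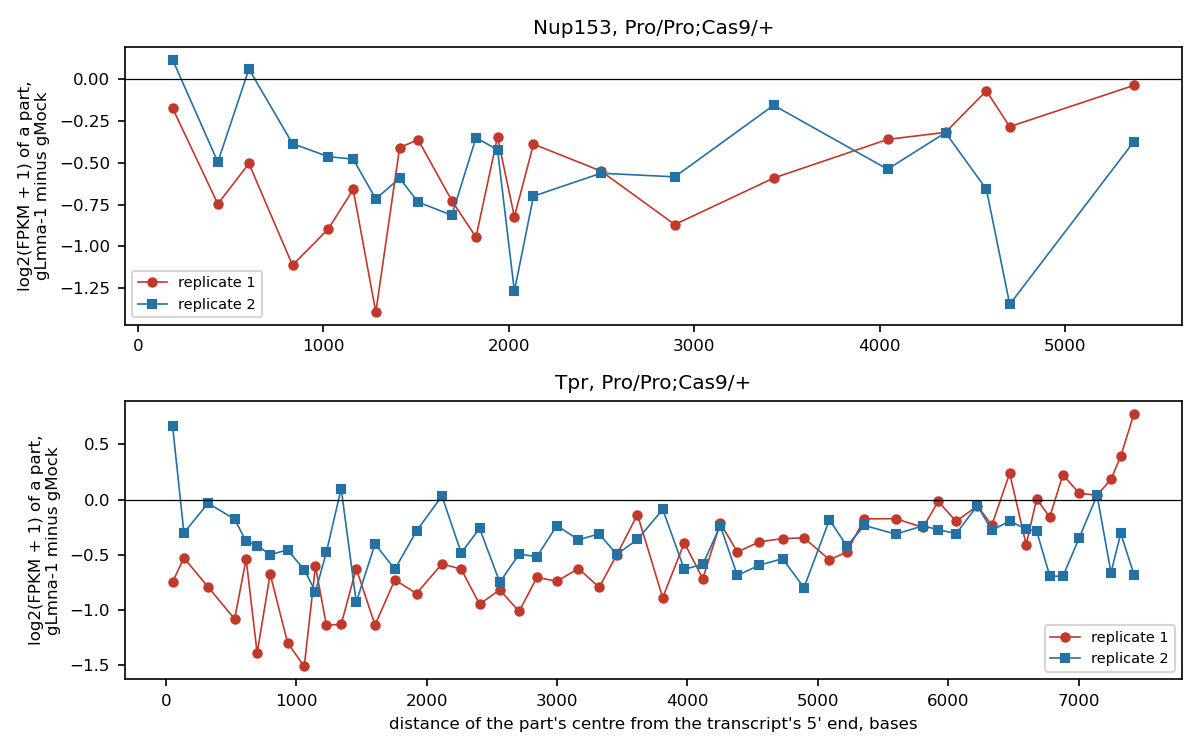
Change of each exon part of at least 50 bases of Nup153 and Tpr with gLmna-1 relative to gMock in homozygous Cas9 cells (log2 of FPKM + 1), by the distance of the part's centre from the transcript's 5′ end in bases; red circles are replicate 1 and blue squares replicate 2. For Nup153, 22 and 20 of 22 parts lie below 0, and for Tpr 46 and 50 of 54. The replicate 1 values of Tpr near 0 towards the 3′ end, and its last part lies above 0.

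In the outer ring, the Y-shaped complex that coats the membrane at the pore, 8 of 9 genes had a negative change over both guides in homozygous Cas9 cells (median -0.13) and 0 passed the test. Ahctf1, or Elys, the subunit that binds chromatin and seeds pore assembly after mitosis, had 5.85 and 7.06 FPKM with gLmna-1, 6.92 and 7.64 FPKM with gLmna-2, and 7.29 and 8.83 FPKM with gMock. Its groups overlapped, and its change over both guides was -0.20 (SE 0.077, adjusted p = 0.511). Nup160, a scaffold subunit of the Y complex, had 3.39 and 4.32 FPKM with gLmna-1, 3.82 and 5.04 FPKM with gLmna-2, and 4.60 and 5.44 FPKM with gMock. It was lower than gMock with both guides in both mice, at -0.23 (SE 0.12, adjusted p = 0.674). The remaining outer ring genes Nup37, Nup43, Nup85, Nup107, Nup133, Seh1l and Sec13 had adjusted p above that of Ahctf1.

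The inner ring genes all had negative changes over both guides in homozygous Cas9 cells, with a median of -0.20, and 0 of 5 passed. Nup155, a scaffold protein that links the inner ring to the membrane, had 4.79 and 5.28 FPKM with gLmna-1, 5.36 and 5.21 FPKM with gLmna-2, and 5.94 and 6.34 FPKM with gMock. Nup205, the large inner ring partner of Nup93, had 8.90 and 10.5 FPKM with gLmna-1, 9.77 and 11.4 FPKM with gLmna-2, and 11.5 and 12.9 FPKM with gMock. For both genes each guide library lay below both gMock libraries, yet the tests gave -0.21 (SE 0.12, adjusted p = 0.697) and -0.25 (SE 0.10, adjusted p = 0.550). Nup35, Nup93 and Nup188 showed no call either.

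In the central channel Nup62, the core repeat protein of the channel, had 17.4 and 14.4 FPKM with gLmna-1, 11.8 and 17.7 FPKM with gLmna-2, and 13.6 and 19.1 FPKM with gMock. With gLmna-1 it was higher than gMock in replicate 1 and lower in replicate 2, by 0.33 and -0.39. Nup54, its partner in the channel complex, had 6.34 and 5.66 FPKM with gLmna-1, 5.32 and 5.26 FPKM with gLmna-2, and 5.73 and 6.50 FPKM with gMock. Neither passed, at adjusted p of 0.928 for Nup62 and 0.860 for Nup54.

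On the cytoplasmic side 5 of 7 genes had a negative change over both guides, with a median of -0.06, and 0 passed. Nup98, a repeat protein of channel and cytoplasmic side with a role in mRNA export, had 13.0 and 13.9 FPKM with gLmna-1, 14.5 and 14.1 FPKM with gLmna-2, and 16.1 and 15.9 FPKM with gMock. The guide libraries lay below both gMock libraries, with a change of -0.19 (SE 0.062, adjusted p = 0.425). Ranbp2, the giant protein of the cytoplasmic filaments and a SUMO ligase, had 12.2 and 16.8 FPKM with gLmna-1, 18.4 and 17.1 FPKM with gLmna-2, and 17.9 and 20.7 FPKM with gMock. Its lowest value was in the library with low 5′ coverage, and its transcript of 9445 bases is the longest of the members. The change over both guides was -0.26 (SE 0.096, adjusted p = 0.506).

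The Nup98 transcript used here also encodes Nup96, an outer ring subunit that is cleaved from a shared precursor. The 2934 bases beyond the end of the shorter Nup98 transcripts, at position 102134186 of chromosome 7 in mm10, had between 0.847 and 1.18 times the level of the shared part in the 18 libraries. Homozygous Cas9 cells had ratios of 1.18 and 0.986 with gLmna-1, 1.07 and 0.976 with gLmna-2, and 0.948 and 1.02 with gMock. The highest values, 1.18 in homozygous Cas9 cells with gLmna-1 replicate 1 and 1.18 in gLmna-2 replicate 2 of wild-type Cas9 cells, were in the libraries with the lowest median log2 ratios of 5′ to 3′ side, -0.28 and -0.06.

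Of the membrane genes, Pom121, a membrane nucleoporin with repeats that takes part in building new pores, had 7.43 and 8.29 FPKM with gLmna-1, 8.26 and 8.38 FPKM with gLmna-2, and 9.91 and 11.0 FPKM with gMock. All guide libraries were below both gMock libraries, and its change of -0.33 over both guides was the most negative among members (SE 0.090, adjusted p = 0.341). Ndc1, which anchors the scaffold in the membrane, had 8.21 and 7.52 FPKM with gLmna-1, 9.31 and 10.8 FPKM with gLmna-2, and 10.0 and 12.7 FPKM with gMock, with a change of -0.31 (SE 0.15, adjusted p = 0.651). Its gLmna-2 libraries overlapped the gMock libraries. Tmem33, which shapes the membrane, had a change of -0.07 (SE 0.074, adjusted p = 0.878).

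Taken singly, gLmna-1 gave a negative change for 26 of 29 members in homozygous Cas9 cells, with a median of -0.15, against -0.03 for all tested genes. With the low 5′ library left out, 28 were negative, with a median of -0.21. The most negative change of any member was that of the membrane protein Ndc1, at -0.47 (SE 0.17, adjusted p = 0.205), whose levels are given above. Pom121 stood at -0.37 (SE 0.10, adjusted p = 0.124). Also below the calls, Nup214 stood at -0.35 (SE 0.087, adjusted p = 0.0881) and Ranbp2 at -0.40 (SE 0.11, adjusted p = 0.118). Nup214, a repeat protein of the cytoplasmic side that binds exportins, is named here after its values were seen. It had 6.52 and 6.98 FPKM with gLmna-1, 8.02 and 9.22 FPKM with gLmna-2, and 7.88 and 10.0 FPKM with gMock, so that both gLmna-1 libraries lay below the others. With gLmna-2 the median was -0.13, against 0.02 for all tested genes, 24 of 29 were negative and 0 were called, where 0.357% of all genes were. At an unadjusted p below 0.05 there was 1 member, against 1272 of all tested genes. Without gMock replicate 2 that median was -0.04. Its member with the smallest adjusted p was Pom121, at -0.29 (SE 0.10, adjusted p = 0.345). The gLmna-1 and gLmna-2 changes share their gMock libraries.

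The guides were then compared directly in homozygous Cas9 cells. Tpr was higher with gLmna-2 than with gLmna-1, 34.0 and 37.0 FPKM against 25.1 and 30.2 FPKM. The difference was 0.35 (SE 0.071, limma adjusted p = 0.0178), in both mice. It was the 1 member called among 29, in a comparison that called 9.95% of all tested genes and 6.92% as higher. Nup214 (0.31, adjusted p = 0.0543) and Nup153 (0.28, adjusted p = 0.0558) did not pass. The members' median was 0.08 and that of all tested genes 0.06, and with median-centred libraries the members' median was -0.01.

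Without gLmna-1 replicate 1 the Tpr difference was 0.33 (adjusted p = 0.0279), and without gLmna-2 replicate 1 or replicate 2 it was 0.27 and 0.44 and did not pass (adjusted p = 0.174 and 0.0533). It did not pass without a term for the mouse either (adjusted p = 0.212). On the 3′ side of the transcript it was 0.30 (adjusted p = 0.0729). Without gLmna-1 replicate 1, Nup214 and Rae1 were also higher with gLmna-2, so that 3 of 29 members were called, or 10.3%, and 20.9% of all tested genes were. The members' median was then 0.10. In wild-type Cas9 and in heterozygous cells gLmna-2 and gLmna-1 differed for 0 members, and 0% of all tested genes were called in either genotype. Without adjustment 0 members had p below 0.05 in either, against 1009 and 266 of all tested genes in wild-type Cas9 and in heterozygous cells. There the Tpr differences were 0.01 (95% interval -0.15 to 0.17) and -0.09 (95% interval -0.26 to 0.07).

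In wild-type Cas9 cells the guides against gMock gave negative changes for 28 of 29 members, with a median of -0.17, where all tested genes had a median of -0.02 and 43.4% were positive. 0 members passed, against 0.849% of all genes, and 4 had p below 0.05 without adjustment, against 959 of all tested genes. Guide libraries lay entirely below gMock for 7 members, Nup153, Ahctf1, Nup54, Nup98, Nup214, Rae1 and Pom121, and above for 0, where the shares over all tested genes were 10.8% and 5.5%.

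The mice differed in this shift. In replicate 2 of wild-type Cas9 cells 26 of 29 members were lower with each guide, with medians of -0.31 for gLmna-1 and -0.26 for gLmna-2. In replicate 1, 13 were lower with gLmna-1 (median 0.01) and 26 with gLmna-2 (median -0.10). Without gMock replicate 2 the members' median over both guides was -0.04, and without gMock replicate 1 it was -0.29.

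Pom121 had 7.31 and 7.46 FPKM with gLmna-1, 7.45 and 7.19 FPKM with gLmna-2, and 8.28 and 10.5 FPKM with gMock in wild-type Cas9 cells, a change of -0.31 (SE 0.090, adjusted p = 0.398). For Nup153 the values were 11.5 and 10.7 FPKM with gLmna-1, 11.1 and 11.2 FPKM with gLmna-2, and 12.3 and 13.6 FPKM with gMock, with a change of -0.20 (SE 0.070, adjusted p = 0.517). Both genes were thus lower with each guide in each wild-type mouse. Tpr had 31.9 and 34.4 FPKM with gLmna-1, 30.9 and 35.9 FPKM with gLmna-2, and 32.1 and 36.1 FPKM with gMock, and its change was -0.04 (SE 0.062, adjusted p = 0.914). The guide libraries of Tpr followed the mouse, replicate 2 being the higher with every guide.

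In heterozygous cells, which lack Cas9, the members' median over both guides was -0.04, and that of all tested genes was -0.04. 23 of 29 members were negative, and 34.5% of all tested genes were positive. 0 members were called and 0% of all tested genes, and no member had p below 0.05 without adjustment, against 397 of all tested genes. 1 member, Nup153, lay below gMock in every guide library and 0 lay above, against 6.67% and 2.1% of all tested genes. Nup153 had 11.9 and 11.6 FPKM with gLmna-1, 11.2 and 11.1 FPKM with gLmna-2, and 12.1 and 11.9 FPKM with gMock, a change of -0.07 (SE 0.070, adjusted p = 0.996).

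Whether the guide changes differ between genotypes was tested directly with limma, for the mean of both guides. Homozygous minus wild-type Cas9 cells gave 0 calls among members, against 0.0476% of all genes, and a median difference of 0.00 with 15 members positive and 14 negative. That median was 0.15 without gMock replicate 1 and -0.14 without gMock replicate 2 of wild-type Cas9 cells. It was -0.01 without the library with low 5′ coverage, with 8 members positive. For Nup153 the difference was -0.11 (95% interval -0.33 to 0.12) and for Tpr -0.16 (95% interval -0.36 to 0.03), and both intervals include 0. No member had p below 0.05 without adjustment, against 3.03% of all tested genes. Homozygous Cas9 minus heterozygous cells gave 0 calls as well, where 0% of all genes were called, and without adjustment 3 members had p below 0.05, against 523 of all tested genes. The median difference of members was -0.12, against 0.04 for all tested genes, and 24 of 29 were negative. Without gMock replicate 2 of homozygous Cas9 cells that median was -0.04, and without the library with low 5′ coverage -0.15. Pom121 had the most negative value, -0.38 (95% interval -0.67 to -0.09, adjusted p = 1.00), followed by Ndc1 at -0.27 (95% interval -0.75 to 0.21) and Nup153 at -0.25 (95% interval -0.47 to -0.02). In this comparison the Pro genotype and the presence of Cas9 cannot be told apart. Differences between genotypes for gLmna-1 alone, the guide with calls against gMock, were not tested. With gLmna-1 Tpr changed by -0.35 and -0.40 in homozygous Cas9, -0.01 and -0.07 in wild-type Cas9 and 0.03 and -0.01 in heterozygous cells. The corresponding Nup153 changes were -0.48 and -0.42, -0.10 and -0.32, and -0.02 and -0.04.

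Under gMock the genotypes were compared across mice, with 2 mice each, and heterozygous cells again differ from the others in Cas9 as well as in Pro. Homozygous Cas9 minus wild-type Cas9 cells gave 0 member calls, against 0.397% of all genes, and a median of 0.01, which ran from -0.09 to 0.15 when 1 library was left out. Homozygous Cas9 minus heterozygous cells gave 0 member calls, against 0% of all genes, and a median of 0.04, which was -0.05 without gMock replicate 2 of homozygous Cas9 cells. Heterozygous minus wild-type Cas9 cells gave 0 member calls, against 0.413% of all genes, and a median of -0.05, which was 0.06 without gMock replicate 2 of wild-type Cas9 cells. Of all members in these comparisons Nup214 had the smallest adjusted p, in heterozygous minus wild-type Cas9 cells (-0.32, SE 0.14, adjusted p = 0.438), with 7.76 and 7.29 FPKM in heterozygous cells and 9.73 and 9.56 FPKM in wild-type Cas9 cells. These Nup214 values did not overlap. In each of the 3 comparisons no member had p below 0.05 before adjustment, where 1308, 547 and 1577 of all tested genes had.

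With the guides, homozygous Cas9 minus wild-type Cas9 cells gave 0 member calls, against 0.595% of all genes, with a median of 0.02 and 16 members positive. Without the library with low 5′ coverage the median was 0.04, with 19 positive. At an unadjusted p below 0.05 there was 1 member, against 2052 of all tested genes. Ndc1 had the smallest adjusted p, 0.285, with a difference of -0.23 (SE 0.089). Its levels were 8.21 and 7.52 FPKM with gLmna-1 and 9.31 and 10.8 FPKM with gLmna-2 in homozygous Cas9 cells, against wild-type Cas9 levels of 12.1 and 9.50 FPKM with gLmna-1 and 10.7 and 10.3 FPKM with gLmna-2. The genotypes overlapped in these libraries.

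Markers of dividing cells tended to be high in the Cas9 libraries in which pore genes were high, and their part in the result was not tested. The 12 proliferation markers, including Mki67, Top2a and Rrm2, were detected in every library and summed to 97.3 to 254 FPKM. In homozygous Cas9 cells the sums were 109 and 97.3 FPKM with gLmna-1, 97.6 and 158 FPKM with gLmna-2, and 116 and 169 FPKM with gMock. Wild-type Cas9 cells had sums of 203 and 112 FPKM with gLmna-1, 136 and 154 FPKM with gLmna-2, and 140 and 254 FPKM with gMock. The gMock libraries of replicate 2 in both Cas9 genotypes had the highest sum of their genotype, and also the highest levels of pore genes, with median deviations from each member's 18-library mean of 0.16 in homozygous and 0.20 in wild-type Cas9 cells. All 12 markers had negative changes over both guides in homozygous Cas9 and in wild-type Cas9 cells, with medians of -0.31 and -0.54, and 0 passed the test in either. In heterozygous cells the sums lay between 119 and 148 FPKM, and 6 of the 12 were negative, with a median of 0.00.

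Macrophage marker sums were 459 and 1167 FPKM with gLmna-1, 1519 and 814 FPKM with gLmna-2, and 582 and 738 FPKM with gMock in homozygous Cas9 cells. They lay between 71.5 and 578 FPKM in the other genotypes. None of the 10 markers was at 0 in any library, and their part in the pore gene changes was not tested.

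Sums of 5 muscle markers separated the guides in homozygous Cas9 cells, with 8.69 to 13.7 FPKM in gLmna-1, 34.7 to 41.9 FPKM in gLmna-2 and 17.1 to 18.7 FPKM in gMock libraries. Over the other genotypes they ran from 7.10 to 66.3 FPKM. Sums of 5 adipocyte markers were 50.6 to 62.1 FPKM with gLmna-1, 32.4 to 33.9 FPKM with gLmna-2 and 45.3 to 51.1 FPKM with gMock in homozygous Cas9 cells, and 16.5 to 53.3 FPKM elsewhere. Each sum was nearly all 1 gene. Acta1 had an 18-library median of 17.1 FPKM, while Des reached at most 1.62 FPKM and Myog, Myod1 and Ckm at most 0.127 FPKM. Fabp4 had a median of 34.6 FPKM, while Adipoq, Plin1, Lep and Cidec reached at most 0.0348 FPKM. The sums thus follow Acta1 and Fabp4 and do not show a difference in muscle or fat cells. Between 1 and 3 genes of these lists were at 0 in both libraries of a homozygous group, and the part of these lists in the result was not tested.

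The transport machinery that works through the pore was described with further lists of genes. Of 16 importin genes, which carry cargo into the nucleus, 15 had a negative change with gLmna-1 in homozygous Cas9 cells (median -0.20) and 1 was called, where 0.976% of all tested genes were. This was Ipo7, an importin for ribosomal and other basic proteins, with 30.7 and 31.3 FPKM with gLmna-1 and 40.8 and 61.6 FPKM with gMock. Its change was -0.68 (SE 0.125, adjusted p = 0.0465), and both gLmna-1 libraries were below both gMock libraries. The change was -0.94 without the library with low 5′ coverage, -0.41 without gLmna-1 replicate 2 and -0.52 without gMock replicate 2. Ipo7 did not pass without a term for the mouse (adjusted p = 0.468) or with homozygous Cas9 libraries alone (adjusted p = 0.595). It did not pass either with no filter on low values (adjusted p = 0.0865) or with median-centred libraries (adjusted p = 0.0692). The same held for eBayes without trend (adjusted p = 0.0681) and the 3′ side of transcripts (adjusted p = 0.0769). In the comparison of the guides, 2 of 16 importins were called, both higher with gLmna-2, where 9.95% of all tested genes were called and 6.92% as higher. Ipo7, at 49.1 and 71.3 FPKM with gLmna-2, differed by 0.91 (SE 0.125, adjusted p = 0.00602), and Kpna1, an importin alpha adaptor, with 16.5 and 19.0 FPKM with gLmna-2 and 12.2 and 14.4 FPKM with gLmna-1, by 0.39 (SE 0.085, adjusted p = 0.0234). Without the library with low 5′ coverage the differences were 1.18 and 0.42, and without gLmna-1 replicate 2 they were 0.64 and 0.36. Neither passed with homozygous Cas9 libraries alone, at adjusted p of 0.187 for Ipo7 and 0.256 for Kpna1. Without a term for the mouse neither passed either, at adjusted p of 0.0573 and 0.197. Kpna1 also did not pass with median-centred libraries (adjusted p = 0.0856) or on the 3′ side of transcripts (adjusted p = 0.0565), where Ipo7 did. In wild-type Cas9 cells both genes were lowest with gLmna-1 too, which was not so in heterozygous cells. Wild-type Ipo7 had 50.5 and 49.5 FPKM with gLmna-1, 62.0 and 52.3 FPKM with gLmna-2, and 60.1 and 58.2 FPKM with gMock. Wild-type Kpna1 had 15.4 and 15.5 FPKM with gLmna-1, 18.4 and 17.4 FPKM with gLmna-2, and 18.5 and 17.1 FPKM with gMock.

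Of 10 exportins and mRNA export receptors 9 had negative changes with gLmna-1 (median -0.23) and 0 were called, the smallest adjusted p being 0.0628 for Xpo4 (-0.47, SE 0.10). Xpo1, the main exportin for proteins, stood at -0.50 (SE 0.14, adjusted p = 0.124). Of 7 genes of the Ran system, the small GTPase cycle that gives transport its direction, 6 were negative (median -0.17), and of 7 genes for TREX-2 subunits and basket partners 5 were negative (median -0.08), with 0 calls in both lists. Without the library with low 5′ coverage the gLmna-1 medians were -0.11 for importins (3 called), -0.27 for exportins (0 called), -0.26 for the Ran system (2 called) and -0.10 for TREX-2 and basket partners (0 called), in a fit that called 14.1% of all tested genes. Of 6 further pore genes outside the member list 3 were tested, and all 3 were negative (median -0.16) with 0 calls.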

How the data were processed

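RNA was sequenced from 18 cultures of 6 mice. FastQC 0.11.2, the aligner STAR 2.4.0k and HOMER are named with build mm10 in the submitters' processing notes. The table was deposited as FPKM, which the authors computed with HOMER over exons, 1 row for each part of a transcript per the file headers, 404759 parts of 36795 transcripts. The deposited table also gives the length of each part in bases. 6 of its 24 library columns match no labelled sample and were not used. Strand is not given in the sources used here, so overlapping and antisense transcripts cannot be told apart.

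Parts were merged into transcripts by a length-weighted mean, and the transcript with the highest mean was kept for each symbol. The 12599 genes that reached 1 FPKM in 2 or more libraries were analysed as log2(FPKM + 1), a scale that understates changes of low genes. Fits were made with limma 3.58.1 in R 4.3.3 (lmFit, then trended eBayes), and tables and figures with Python 3.11.15, pandas 2.3.3, numpy 2.4.6 and matplotlib 3.10.9. Guide comparisons came from a single fit of 18 libraries in which each mouse was a fixed block (6 residual degrees of freedom), because the labels name the mouse. Deviations from the group means correlated between libraries of a mouse by -0.02 to 0.78 (homozygous Cas9), 0.47 to 0.73 (heterozygous) and 0.18 to 0.59 (wild-type Cas9). In homozygous Cas9 cells r was 0.13 for gMock with gLmna-1, 0.78 for gMock with gLmna-2 and -0.02 for gLmna-1 with gLmna-2. The member calls came from the first and the last of these pairs. Genotypes were set against each other on 6 gMock libraries or on 6 per-mouse means of the guides (3 residual degrees of freedom). Adjusted p-values are Benjamini-Hochberg values over the 12599 genes, with 0.05 as the threshold, and rest on 2 mice per genotype. The code was tested on simulated data.

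Steps of the values gave whole reads for 100% of the values examined, within 0.05. As counting precision, each tested member had at least 45 reads in every library. Genes described in every library were the basket genes, the called genes and, in each other region, up to 2 with the smallest p for the guide change in homozygous Cas9 cells. Members, lists and this rule were chosen with earlier results of these data known. Alternatives were another pseudocount, no filter, median-centred libraries, other transcripts, voom on recovered reads, eBayes without trend, other blocks, fewer libraries and leaving out each library. The 3′ side of transcripts, and the 5′ to 3′ ratio as a covariate, were added after the data were seen. Promoters are RefSeq, GRCm38.p6.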

Additional observations from a re-analysis of the deposited data

Results flagged for a closer look

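Nup62, the core channel protein, was flagged because its changes had opposite signs in 2 genotypes. It was lower with both guides in both wild-type Cas9 mice, with changes between -0.37 and -0.14, and higher in both heterozygous mice, with changes between 0.02 and 0.24. In homozygous Cas9 cells the signs were mixed, from -0.39 to 0.33. This difference between wild-type Cas9 and heterozygous cells was not tested.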

How the results depend on the processing

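Alternatives could change the number of members called in 2 comparisons of homozygous Cas9 cells, and in the other 12 comparisons it stayed at 0 under every alternative run. For gLmna-1 against gMock the 2 calls became 1 with median-centred libraries (Nup153). With the 5′ to 3′ ratio as a covariate neither Nup153 nor Tpr passed, and 1 other member, Nup214, did. They became 0 with no filter on low values, with eBayes without trend, with no replicate block for the mouse, with the libraries of homozygous Cas9 cells alone (adjusted p = 0.595 for both genes) and with the 3′ side of transcripts. Leaving out 1 library at a time gave 0 to 5. For gLmna-2 minus gLmna-1 the 1 call became 3 with voom on recovered reads and 2 with the covariate. It became 0 with no replicate block, with homozygous Cas9 libraries alone and with the 3′ side of transcripts, and leaving out 1 library gave 0 to 4. The cause of these changes was not tested. The gLmna-1 changes of Nup153 and Tpr and the Tpr difference between the guides kept their sign in every fit. Of 799 values recomputed for 47 selected results, 723 kept their call or lay within the limits set. Numbers of calls that stayed at 0 were counted among the 723. So were uncalled genes whose sign was reversed, so that 723 is not a measure of stability. There were 2 mice per genotype, and single calls came or went when 1 library was left out. Over all tested genes the 123 calls for gLmna-1 ranged from 0 to 1773 (180 with voom) and the 1253 calls for gLmna-2 minus gLmna-1 from 0 to 2629 (1332 with voom). For both guides together the 10 calls in homozygous Cas9 cells ranged from 0 to 152 and the 107 in wild-type Cas9 cells from 0 to 231, and the 45 calls for gLmna-2 ranged from 0 to 181.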
